A study of Homo sapiens with 9 samples.

Results

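The loci of 5 cyclin-dependent kinase (CDK) inhibitor genes, CDKN1A, CDKN2A, CDKN2B, CDKN1B and CDKN1C, and of RB1, the gene of the retinoblastoma protein, were examined for binding of the transcription factor EGR1, measured by ChIP-seq (sequencing of DNA that an EGR1 antibody precipitates from fixed chromatin). The sites were those with a summit in 1 of 5 hg19 windows: chromosome 6, 36.62 to 36.68 Mb (CDKN1A), chromosome 9, 21.94 to 22.04 Mb (CDKN2A and CDKN2B), chromosome 12, 12.85 to 12.90 Mb (CDKN1B), chromosome 11, 2.88 to 2.93 Mb (CDKN1C), and chromosome 13, 48.85 to 49.08 Mb (RB1). They held 11 of the 16285 peaks listed after BRAF V600E induction and 6 of the 12340 listed after induction with clobetasol. All 5 windows held at least 1 peak in each list. Along chromosomes 1 to 22 and X, the share of consecutive stretches of the same width with any induced peak was 18.1% at 50 kb (CDKN1B and CDKN1C), 20.8% at 60 kb (CDKN1A), 29.4% at 100 kb (CDKN2A and CDKN2B) and 46.4% at 230 kb (RB1). With any clobetasol peak it was 14.9%, 17.2%, 25.2% and 42.1%, in the same order. Such stretches, here and below, run along whole chromosomes and were not matched to windows around genes. Their shares therefore do not show that a locus is unusual.

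These genes form the arrest arm of senescence. CDK4 and CDK6 with D-type cyclins, and CDK2 with cyclin E, phosphorylate the retinoblastoma protein, which in its unphosphorylated state holds E2F factors inactive and stops entry into S phase. The INK4 inhibitors encoded by CDKN2A (p16INK4a) and CDKN2B (p15INK4b) block CDK4 and CDK6, and the CIP/KIP inhibitors encoded by CDKN1A (p21), CDKN1B (p27) and CDKN1C (p57) bind cyclin-CDK complexes. Oncogenic RAF signalling in fibroblasts is known to raise several of them, and EGR1 is an immediate early zinc finger protein induced through the same MAP kinase cascade.

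The cells were BJ-hTert-B-RAF-V600E, a human fibroblast line immortalised with telomerase and carrying a BRAF V600E oncoprotein that doxycycline induces. Each of 3 groups had 3 libraries: proliferating cells given ethanol as the inducer vehicle with DMSO, cells given doxycycline at 1000 ng/mL with DMSO, and cells given doxycycline at 1000 ng/mL with clobetasol at 2 nM, a potent glucocorticoid, all for 24 h. Titles name DMSO in the clobetasol group too, while its source label does not, and the labels do not say whether the line is 1 clone or whether libraries came from separate cultures. The authors pooled the 3 libraries of a treated group and compared them with the pool of proliferating libraries, so each value below comes from a single pool and lacks a spread between replicates. Library names in the labels call proliferating replicates 2 and 3 by the same sample name, and whether these were distinct samples was not determined.

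Each site is described as follows. The fold is the authors' enrichment of treated over control fragments at the summit, and the −log10 q is the authors' value from their peak caller. The number of treated fragments over the summit and the control level were solved from the fold and the −log10 p. The control level is the proliferating signal scaled to the depth of the treated pool, by a factor of 0.552 for the induced pool and 0.670 for the clobetasol pool. The median induced peak of the whole list held 64 fragments with a fold of 3.64 and a −log10 q of 14.9. The medians over the 11 sites were 64 fragments, a fold of 3.55 and a −log10 q of 14.7. Their −log10 q ranged from 5.65 to 60.03.

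Of the 11 induced sites, 6 also had a peak with clobetasol, where 64.0% of all induced peaks had one. In the other direction all 6 clobetasol sites overlapped an induced site, where 86.4% of all clobetasol peaks did. Both lists share the proliferating control, so these overlaps are given as counts only. Each window kept 1 or more sites, and all 5 sites without a clobetasol peak lay in the windows of CDKN2A and CDKN2B (3) and CDKN1C (2).

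**Figure D1:**
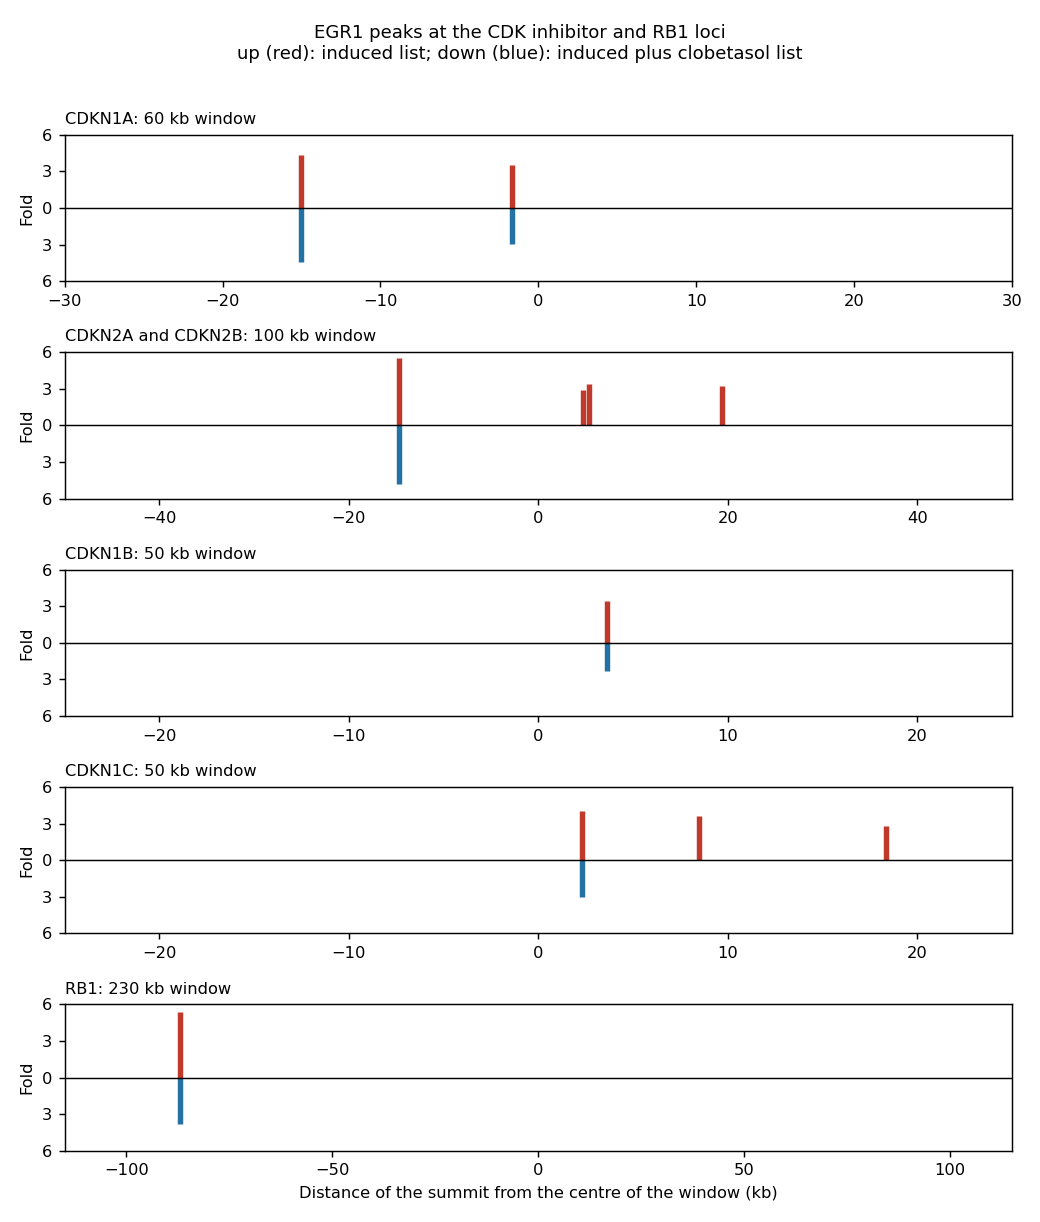
EGR1 peaks in the 5 windows, by distance of the summit from the centre of the window (kb, horizontal) and the authors' fold enrichment over proliferating cells (vertical, red upward for the induced list and blue downward for the induced plus clobetasol list). Red bars without a blue partner mark the 3 sites of the CDKN2A and CDKN2B window and the 2 of the CDKN1C window that had no clobetasol peak.

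CDKN1A encodes p21, a CDK inhibitor of the CIP/KIP family, and its window held the site with the most fragments of all the loci. This site, chr6:36648005-36648504, had 259 fragments in the induced pool (95% exact Poisson interval 228.4 to 292.5) on a control level of 72.3, which is 131 proliferating fragments after scaling. Its fold was 3.55 and its −log10 q of 60.03 was at or above that of 94.0% of the induced list. The control level was 11.1 times the lowest of the list, so the proliferating pool already carried a raised signal there, which without an input library cannot be told apart from other background. In the clobetasol pool, which was 1.21 times deeper, the site had 251 fragments on a control level of 85.1, a fold of 2.93.

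A second CDKN1A site lay 13.4 kb lower on the chromosome, at chr6:36634855-36635201. It had 90 fragments in the induced pool (interval 72.4 to 110.6) on a control level of 19.9, a fold of 4.36. With clobetasol it had 101 fragments on a control level of 22.1, a fold of 4.41. This was the only site of the loci whose listed fold was not lower in the clobetasol list. The nearest listed peaks beyond the window were 58.0 kb before it and 44.8 kb after it in the induced list, with folds of 2.65 and 3.24. Of consecutive 60 kb stretches, 6.68% held 2 or more induced peaks, as this window did.

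The window of CDKN2A and CDKN2B, neighbours on chromosome 9, held 4 induced sites. CDKN2A gives rise to p16INK4a and, from a separate first exon, to ARF, which binds the ubiquitin ligase MDM2. The strongest site, chr9:21974646-21975404, had 102 fragments (interval 83.2 to 123.8) on a control level of 17.6, and its fold of 5.52 was the largest of the 11. Next came a pair of sites with summits 0.629 kb apart, chr9:21994340-21994847 and chr9:21995215-21995538, with 50 and 53 fragments on control levels of 16.5 and 14.9 and folds of 2.91 and 3.40. The last, chr9:22009239-22009506, had 48 fragments on a control level of 14.3 and a fold of 3.19. In order of position, the first 2 summits were 19.5 kb apart, and the last lay 14.0 kb beyond the pair. Of consecutive 100 kb stretches, 2.72% held 4 or more induced peaks.

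With clobetasol, only the strongest of these 4 sites was listed. At chr9:21974646-21975404 the clobetasol pool had 103 fragments on a control level of 20.8, a fold of 4.78. The other 3 had −log10 q values of 7.97, 11.1 and 9.05 in the induced list, against 39.1 for the listed one. The nearest listed clobetasol peak above the strongest site began at chr9:22148131-22148503, outside the window.

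Promoter sequences are shown for CDKN1A, the locus of the strongest site, and for CDKN2A and CDKN2B, where retained and unlisted sites sit side by side. They are the 250 bases before each RefSeq start of build GRCh38.p14, 5′ to 3′ on the strand of the gene: chr6:36678464-36678713 on the plus strand for CDKN1A, and on the minus strand chr9:21995325-21995574 and chr9:21974858-21975107 for the CDKN2A starts and chr9:22009306-22009555 for CDKN2B. Capitals mark matches on either strand to GNGGGCG, with any letter at N. This is a looser form of the last 7 letters of the EGR1 motifs GCGTGGGCG and GCGGGGGCG, which are GTGGGCG and GGGGGCG. The stretch marked before CDKN1A and the first before CDKN2B read GAGGGCG on one of the strands, which neither motif holds.
CDKN1A: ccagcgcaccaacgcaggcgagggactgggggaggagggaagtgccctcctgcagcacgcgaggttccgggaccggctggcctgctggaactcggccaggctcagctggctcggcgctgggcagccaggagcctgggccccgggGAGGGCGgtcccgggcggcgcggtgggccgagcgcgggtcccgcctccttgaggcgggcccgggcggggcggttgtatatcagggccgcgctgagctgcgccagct
CDKN2A, start nearer CDKN2B: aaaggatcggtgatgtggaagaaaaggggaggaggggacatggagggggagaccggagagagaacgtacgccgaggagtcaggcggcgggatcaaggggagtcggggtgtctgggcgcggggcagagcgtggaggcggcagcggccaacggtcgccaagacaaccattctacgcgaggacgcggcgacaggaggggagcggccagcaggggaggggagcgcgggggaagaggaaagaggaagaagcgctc
CDKN2A, start farther from CDKN2B: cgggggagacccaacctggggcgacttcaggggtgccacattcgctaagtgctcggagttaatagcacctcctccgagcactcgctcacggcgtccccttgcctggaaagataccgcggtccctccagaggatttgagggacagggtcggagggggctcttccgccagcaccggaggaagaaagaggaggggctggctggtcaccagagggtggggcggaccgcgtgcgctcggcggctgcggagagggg
CDKN2B: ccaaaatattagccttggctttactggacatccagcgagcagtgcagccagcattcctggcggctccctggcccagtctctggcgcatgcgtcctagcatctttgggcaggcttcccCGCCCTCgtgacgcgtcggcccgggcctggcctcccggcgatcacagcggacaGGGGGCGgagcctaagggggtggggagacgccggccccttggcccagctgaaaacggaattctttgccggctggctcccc

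The 9-letter motifs had no match on either strand before the starts of CDKN1A, CDKN2A, CDKN2B or CDKN1B that the RefSeq table gives. The only RB1 start in the table lies inside the gene, far from its first base, and had no match either, so the promoter at the first base of RB1 was not searched. CDKN1C had no promoter in the table and was not searched. Among all 35116 promoters of the table, 0.720% held GCGTGGGCG and 4.72% held GCGGGGGCG in the same 250 bases. The shorter GNGGGCG, searched after those results were seen, matched 1 time before CDKN1A and 2 times before CDKN2B, and did not match before either CDKN2A start, CDKN1B or the inner RB1 start. Of all promoters, 37.4% held it. These starts are in another build than the peaks. Which start, exon or intron a peak covers was therefore not determined, and a match describes letters only.

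CDKN1B encodes p27, and its window held 1 site in each list. The induced site, chr12:12877707-12878873, was the widest of the 11 at 1167 bp. It had 183 fragments (interval 157.4 to 211.5) on a control level of 52.4, a fold of 3.45 and a −log10 q of 40.5. Its control level was 8.08 times the lowest of the list. With clobetasol it had 148 fragments on a control level of 63.7, a fold of 2.30, the lowest of the 6 clobetasol sites. In the order of RefSeq genes CDKN1B is followed by APOLD1, which encodes an apolipoprotein L domain protein of endothelial cells, and its place relative to the peak was not determined.

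CDKN1C, an imprinted gene expressed mainly from the maternal copy, encodes p57. Its window held 3 induced sites, all with fewer fragments than the strongest sites of the other loci. The site chr11:2906935-2907682 had 53 fragments (interval 39.7 to 69.3) on a control level of 12.4, a fold of 4.03. The site chr11:2913259-2913751 had 64 fragments on a control level of 17.1, a fold of 3.59, and chr11:2923164-2923572 had 40 fragments on a control level of 13.8, a fold of 2.77. Only the first was listed with clobetasol, with 50 fragments on a control level of 16.1 and a fold of 2.99. Of consecutive 50 kb stretches, 1.88% held 3 or more induced peaks. Another induced peak, chr11:2933600-2934095, fell 3.86 kb outside the bound, with a fold of 4.56 and 79 fragments, and it was also listed with clobetasol (fold 3.26, 70 fragments). SLC67A1 is the next coding gene after CDKN1C in the RefSeq order.

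RB1 encodes the pocket protein on which the INK4 and CIP/KIP inhibitors converge. Its 230 kb window held a single site in each list. The induced site, chr13:48877660-48878212, had 93 fragments (interval 75.1 to 113.9) on a control level of 16.5 and a fold of 5.36, the second largest of the 11. With clobetasol it had 76 fragments on a control level of 19.4, a fold of 3.77. A peak 42.8 kb before the window, toward ITM2B, had a fold of 4.31 and 134 fragments, and after the window none was listed for 470.7 kb. The RefSeq order places LPAR6, a lysophosphatidic acid receptor gene, inside RB1.

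**Figure D2:**
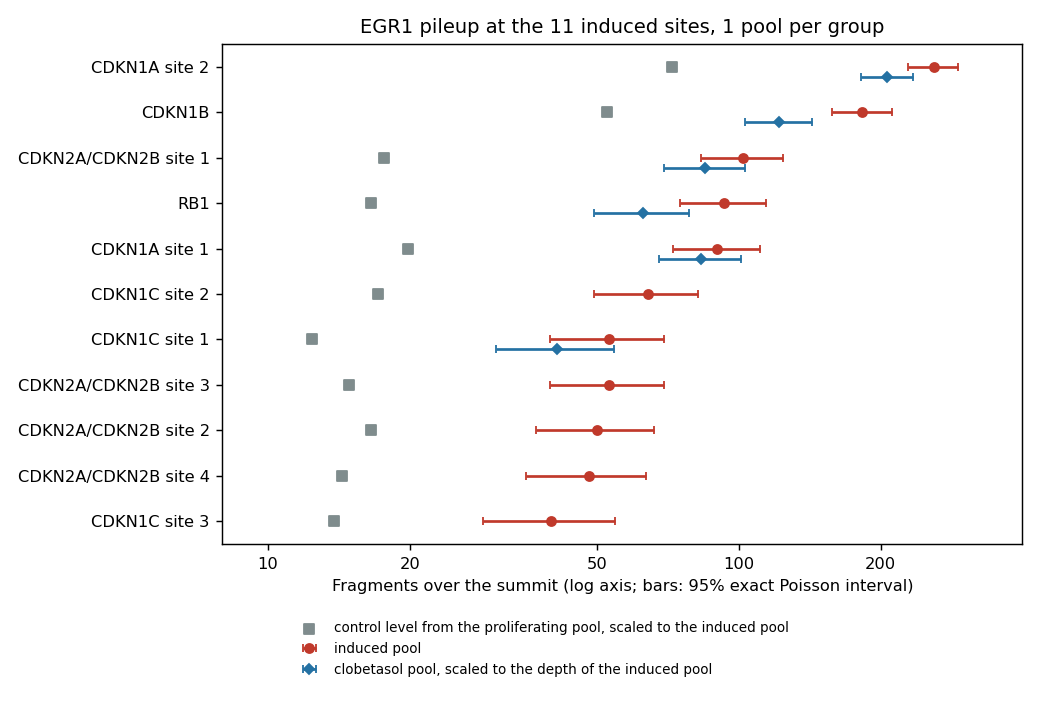
Fragments over the summit at the 11 induced sites (horizontal, log axis), ordered by the induced value, with 1 pool of 3 libraries per group and 95% exact Poisson intervals that cover counting error only. The induced value ran from 40 to 259 and lay above the scaled proliferating level at every site, which the choice of peaks by the caller fixes, and blue diamonds give the depth-scaled clobetasol value at the 6 sites listed in both.

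The next comparison asked how the pileup differed between the clobetasol and the induced pool where both had a peak. Depth-scaled fragments were lower with clobetasol at all 6 sites, though at the second CDKN1A site and the strongest CDKN2A and CDKN2B site the ratio was above 1 (1.16 and 1.04) when the median of all shared sites was set to 1. They were lower at 87.5% of all 10392 shared sites tested. An exact binomial test with Benjamini-Hochberg adjustment over those 10392 sites called 3 of the 6 lower and 0 higher, where 23.1% of all were called lower and 0.337% higher. The test sets 1 pool against 1 pool and so compares these libraries, not the conditions.

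The CDKN1B site showed the lowest ratio, with 183 fragments in the induced pool against 121.8 depth-scaled fragments with clobetasol. This ratio of 0.666 had a 95% exact interval of 0.532 to 0.831 and an adjusted p of 0.00382 in the exact binomial test. At RB1 the values were 93 against 62.6, a ratio of 0.673 (0.490 to 0.921, exact test, adjusted p = 0.0468). At the stronger CDKN1A site they were 259 against 206.6, a ratio of 0.798 (0.668 to 0.953, exact test, adjusted p = 0.0482). The calls at RB1 and CDKN1A were close to the threshold of 0.05, and the RB1 call was lost (adjusted p = 0.0598 by the exact test) when sites with a control level over 5 times the lowest were left out, a set to which the CDKN1A and CDKN1B sites belong.

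The other 3 shared sites did not pass. The ratio was 0.831 (0.626 to 1.10) at the strongest CDKN2A and CDKN2B site, 0.777 (0.517 to 1.17) at CDKN1C and 0.924 (0.688 to 1.24) at the second CDKN1A site. Their adjusted p values from the exact binomial test were 0.357, 0.350 and 0.742, and their intervals also hold the median ratio of all shared sites, 0.798 (interquartile range 0.706 to 0.909). The median of the 6 was 0.787. Against that general decrease, with the median of all shared sites set to 1, or with 1 common factor of 0.733 on the excess over control, the exact test called 0 of the 6 lower. Of all 10392 shared sites it called 91 lower and 203 higher in the first setting. In the second it called 56 lower and 90 higher. With so few calls over all sites, 0 of the 6 does not set these loci apart.

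The excess over the control level, the part of the pileup above the scaled proliferating level, gave the same order. It went from 130.6 to 69.4 depth-scaled fragments at CDKN1B, a ratio of 0.532, and from 76.5 to 46.6 at RB1, a ratio of 0.609. At CDKN1C it went from 40.6 to 27.9, a ratio of 0.688. At the stronger CDKN1A site it went from 186.7 to 136.6, a ratio of 0.731, and at the strongest CDKN2A and CDKN2B site from 84.4 to 67.7, a ratio of 0.802. The second CDKN1A site kept 64.9 of 70.1, a ratio of 0.926. The median over all shared sites was 0.733 and over the 6 was 0.710. At CDKN1C the induced control level equals 22.5 proliferating fragments, which is not a whole number and so not a count at the summit.

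Peaks of these loci were narrower with clobetasol while their summits stayed in place. All 6 were narrower, as were 79.0% of all shared peaks. Width went from 1167 to 632 bp at CDKN1B, from 759 to 329 bp at the strongest CDKN2A and CDKN2B site, from 553 to 285 bp at RB1 and from 500 to 265 bp at the stronger CDKN1A site. It changed less at CDKN1C, from 748 to 556 bp, and at the second CDKN1A site, from 347 to 265 bp. The median ratio of widths was 0.536 over the 6 and 0.844 over all shared sites. This comparison was not matched for induced width, whose median over the whole induced list was 423 bp. The narrowest peak of the clobetasol list was 223 bp. A narrowing particular to these loci is therefore not shown. The largest shift of a summit was 25 bp, at CDKN1C, and the median over all shared sites was 11 bp.

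**Figure D3:**
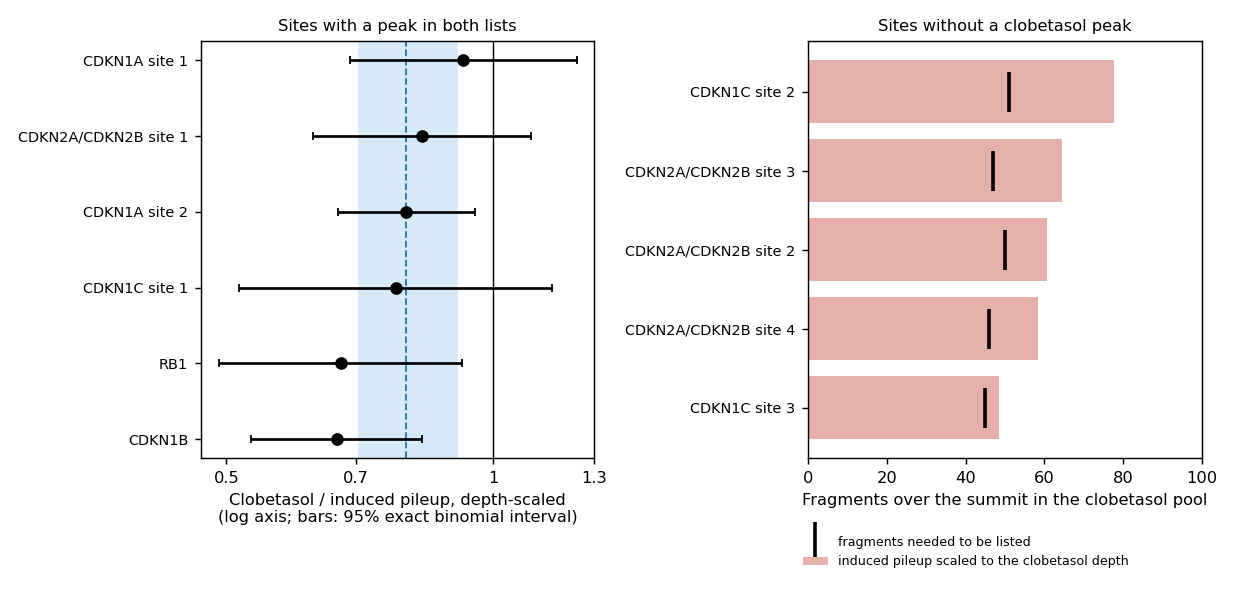
Left, depth-scaled ratio of clobetasol to induced fragments at the 6 shared sites (log axis, points with 95% exact binomial intervals, 1 pool per group), with the median of all shared sites as a dashed line and their interquartile range shaded. Right, for the 5 sites without a clobetasol peak, the induced fragments scaled to the depth of the clobetasol pool (bars) and the number that would have reached the lowest −log10 p of the clobetasol list (ticks), which every bar passes.

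For the 5 sites without a clobetasol peak no fragments are listed, and only a limit can be given. Their induced folds ran from 2.77 to 3.59 and their fragments from 40 to 64, against folds of 3.45 to 5.52 and 53 to 259 fragments at the sites with one. At the proliferating level of each site, an unchanged pileup would have given 48.6 to 77.7 fragments in the deeper clobetasol pool, and 45 to 51 were needed to reach the lowest −log10 p of that list, 8.12. A site below that bound had a depth-scaled ratio under 0.656 at chr11:2913259-2913751, under 0.730, 0.789 and 0.823 at the CDKN2A and CDKN2B sites chr9:21995215-21995538, chr9:22009239-22009506 and chr9:21994340-21994847, and under 0.926 at chr11:2923164-2923572. The limit lay under the median ratio of all shared sites, 0.798, at the first 3 of these and over it at the last 2. That median covers only sites listed in both pools, while these sites were listed in the induced pool alone, which favours high induced counts. The limits therefore do not show a larger decrease than at other sites.

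The authors' peak numbers run to 52393 for the 16285 induced peaks and to 26677 for the 12340 clobetasol peaks, so most numbers are skipped in both lists. Between the clobetasol peaks on either side of the unlisted sites, 3 numbers were skipped at CDKN2A and CDKN2B and 2 at CDKN1C. No label or header says what the skipped numbers stood for, and a site without a listed peak is not shown to be free of EGR1.

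Retention can also be set out by the strength of the site in the induced list. Of the 5 sites with −log10 q over 20, all 5 had a clobetasol peak, where 94.5% of all such peaks did. Of the 3 between 10 and 20, 1 had one, against 63.3%, and of the 3 between 5 and 10, 0 had one, against 28.7%.

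**Figure D4:**
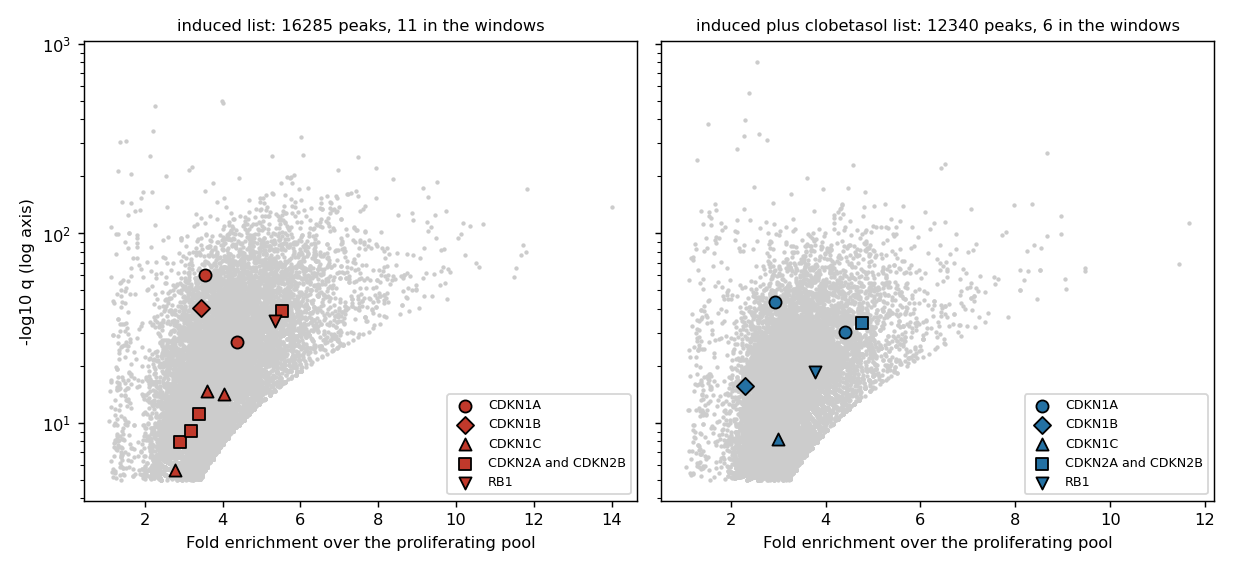
Authors' fold (horizontal) and −log10 q (vertical, log axis) of every peak in grey and of the peaks in the windows as symbols, for the induced list (left, 11 sites) and the induced plus clobetasol list (right, 6 sites). The sites of the loci lie inside the range of the other peaks, with folds from 2.77 to 5.52 on the left and from 2.30 to 4.78 on the right.

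Other genes of the same pathway were examined in 17 windows of rounded hg19 positions with about 20 kb on each side, which can also hold neighbouring genes. Of the 17, 15 had an induced peak and 11 a clobetasol peak. No share of stretches matched to these windows was computed, so the counts do not show that peaks were frequent there. Of consecutive stretches, not matched to genes, 18.1% at 50 kb and 46.4% at 230 kb held an induced peak. The 34 induced peaks of the 17 windows had a median fold of 3.85, and 23 had a clobetasol peak (67.6%, where 64.0% of all induced peaks had one). At those 23 the exact binomial test called 5 lower and 0 higher, where 23.1% of all shared sites were called lower, and the median ratio was 0.800, against 0.798 over all.

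The largest fold of these genes was at CDKN2D, the INK4 inhibitor p19INK4d, at 7.42 on induction and 5.57 with clobetasol. Its depth-scaled ratio was 0.729 (95% exact interval 0.623 to 0.854, exact test, adjusted p = 0.00141). The lowest induced fold, 2.08, was near CCND3, a D-type cyclin gene, and the lowest clobetasol fold, 1.93, near LMNB1, the gene of a nuclear lamin that falls in senescence. RBL1, which encodes the RB1 relative p107, and CCND2, another D-type cyclin gene, had no peak in either list. The genes that follow, which hold the other 4 sites called lower, were picked once their values were known. CBX7 and BMI1 encode Polycomb proteins that repress CDKN2A. Both peaks near CBX7 were called lower, with ratios of 0.633 and 0.653 (exact test, adjusted p = 0.000382 and 0.000300). Of 3 induced peaks near BMI1, 1 was called lower (ratio 0.527, exact test, adjusted p = 0.00130), 1 was not (ratio 0.805, adjusted p = 0.299), and 1 had no clobetasol peak. Of 3 near CCND1, the cyclin D1 gene, 1 was called lower (ratio 0.635, exact test, adjusted p = 0.00203) and the others, with ratios of 0.850 and 0.835, were not. The calls at CDKN2D, CBX7, BMI1 and CCND1 were not repeated with the median of all shared sites set to 1. Whether they exceed the general decrease was not tested.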

How the data were processed

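EGR1 ChIP-seq was deposited as 2 peak lists from 9 libraries in 3 groups. Per the submitters' processing notes, tools included MACS2 2.1.1.20160309 and cutadapt 1.15, and the build was hg19. No source used here states their settings. Peak names in the deposited lists show that 3 treated libraries were pooled against the pooled proliferating libraries. The deposited fold is a ratio of treated to control pileup. The authors' −log10 p and −log10 q refer to the summit. The deposited score is 10 times the −log10 q cut to a whole number, and was not used further. The lowest −log10 q was 5.00 in each list.

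Fragments and control levels were solved from the fold, read as treated fragments plus 1 over control plus 1, and the Poisson −log10 p. A whole number of fragments met the −log10 p within 0.002 for 99.8% of peaks in each list, and 37 shared pairs without one were not tested. Low control levels tended to fall on multiples of 0.552 and 0.670, whose ratio, 1.21, was taken as the relative depth of the clobetasol pool. Sites were shared at an overlap of 1 bp or more. Pileups were compared by a two-sided exact binomial test, adjusted over all 10392 shared sites (Benjamini-Hochberg). Scripts used Python 3.11.15 and SciPy 1.17.1 and were tested on simulated data. Intervals cover counting error only.

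The windows, member genes and the pathway list were chosen with earlier results of these data known. Every peak in a member's window is named. Of the pathway genes, those of highest and lowest fold in each list and those without a peak are named by rule. RefSeq promoters were found for 5 of the 6 members, all but CDKN1C. The pathway windows were rounded positions from general knowledge, and their chromosomes were checked in the RefSeq gene table for all 17. Of the genes first listed, 1 is not reported here.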

Additional observations from a re-analysis of the deposited data

How the results depend on the processing

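No paired analysis was possible because each list holds 1 pool of 3 libraries per treated group, with no value per library. For the same reason no library could be left out. The number of induced sites in the windows, 11, was 5 when −log10 q had to reach 20 and 17 with windows widened by 50 kb on each side. The number of clobetasol sites, 6, was 3 and 12 under these settings. Of the 11 induced sites, 6 had a clobetasol peak. When −log10 q had to reach 20 in each list, 3 of the 5 induced sites left had one. The number of shared sites with a lower pileup, 3 of 6, fell to 0 under each of 3 settings: with the depth ratio that sets the median of all shared sites to 1, with 1 common factor on the excess over the control level, and, among the 4 sites left, without sites of high control level. Over all shared sites, the first setting called 91 of 10392 lower and 203 higher, and the second 56 lower and 90 higher. The last called 1209 of 7742 lower and 13 higher. The call at CDKN1B was lost under the first 2 settings (adjusted p = 0.553 and 0.574 by the exact binomial test), and the site itself is left out under the last. It held when summits had to lie within 100 bp, a setting added after seeing the data (adjusted p from 0.00382 to 0.574 over its settings). The other alternatives kept counts within 1.5 times. Depth limits the sites of about 50 fragments most, where the interval of the ratio at CDKN1C spanned 0.517 to 1.17.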
